A study of Saccharomyces cerevisiae with 29 samples.

Results

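The long terminal repeats (LTRs) of the yeast Ty retrotransposons are described here as they lie on the reference sequence on which the study's ribonucleotides were mapped. The members are all rows of the study's annotation with the type long terminal repeat, 381 of 26240 rows, and no measured value entered their choice. Their names place 296 in the delta family (77.7%), 42 in sigma (11.0%), 35 in tau (9.19%) and 8 in omega (2.10%). Together they covered 109 kb, or 0.908% of the 12.1 Mb of the 16 nuclear chromosomes, a density of 3.16 LTRs per 100 kb.

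Ty elements copy themselves through an RNA that is made and reverse transcribed, and they carry an LTR in the same direction at each end. The 5′ LTR holds the promoter of the element and the 3′ LTR ends its transcript. Recombination between both LTRs of an element removes the inside and leaves a single LTR behind, called a solo LTR. In budding yeast Ty1 and Ty2 carry delta LTRs, Ty3 carries sigma, Ty4 carries tau and Ty5 carries omega. Ty1 and Ty3 are known to insert upstream of genes transcribed by RNA polymerase III, mostly tRNA genes, and Ty5 into silent chromatin near telomeres and the silent mating-type loci.

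The study made 29 libraries of genomic DNA by HydEn-seq, a method that hydrolyses DNA with alkali at ribonucleotides and sequences the 5′ ends so made. The libraries come from 14 strains of Saccharomyces cerevisiae grown in rich medium. Without RNH201, a subunit of the RNase H2 that removes such ribonucleotides, there were 4 libraries of pol2-M644G, 3 of pol1-Y869A, 2 each of pol2-M644L, pol3-L612G and pol3-L612M, 1 of pol1-L868M and 2 with wild-type polymerases, 16 in all. With RNH201 there were 3 libraries of pol2-M644G, 2 each of pol1-Y869A, pol2-M644L and pol3-L612G, 1 each of pol1-L868M and pol3-L612M and 2 of the wild type, 13 in all. The genes POL1, POL2 and POL3 encode the catalytic subunits of the replicative DNA polymerases alpha, epsilon and delta. HydEn-seq counts were not analysed here, and strains are not compared. Every value is a position or a length on 1 annotated sequence (L03, ref_v2), and there are no replicates. Ranges in brackets are 95% binomial confidence intervals by the exact Clopper-Pearson method. They treat LTRs as independent, which neighbouring LTRs are not, and no test of chance was made.

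The first comparison was of the lengths of the LTRs within and between families. Tau LTRs had the longest median, 356 bp, followed by sigma with 340 bp, delta with 329 bp and omega with 236.5 bp. The quartiles were 283 and 371 bp for tau, 286 and 341 bp for sigma, 267.75 and 332 bp for delta and 213.25 and 243 bp for omega. The upper quartile of delta, sigma and tau therefore lay at or within 1 bp of the length that the family's LTRs have at the ends of annotated elements, with medians of 333 bp for delta, 340 bp for sigma and 371 bp for tau. For omega this length is 203.5 bp, but it is the middle of only 157 and 250 bp.

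An LTR was called long if it had at least 90% of the length its family has at the ends of elements. By this measure 260 of 381 LTRs were long (68.2%, 63.3 to 72.9%), with 202 of 296 delta (68.2%), 30 of 42 sigma (71.4%), 22 of 35 tau (62.9%) and 6 of 8 omega LTRs. Of the LTRs at the ends of an element, 93 of 95 were long (97.9%), against 167 of 286 solo LTRs (58.4%). The paired LTRs set the reference length, so their share of long members is a description. Among solo LTRs the share was 120 of 213 for delta (56.3%), 26 of 38 for sigma (68.4%) and 16 of 29 for tau (55.2%). The lower quartile of the solo LTRs was 225 bp in delta, 275 bp in sigma and 271 bp in tau, while their upper quartiles were 332, 341 and 371 bp. The upper quartiles of the paired LTRs were 337, 340 and 371 bp. The 18 LTRs shorter than 100 bp (8 delta, 7 sigma, 2 tau and 1 omega) were all solo.

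The shortest delta LTR was YDRCdelta6B with 28 bp (chromosome IV, 520745 to 520772). The shortest sigma LTR was YERCsigma2 with 67 bp (chromosome V, 353743 to 353809), the shortest tau LTR YCRCtau1 with 22 bp (chromosome III, 147229 to 147250) and the shortest omega LTR YERComega1 with 97 bp. The longest tau LTRs have 371 bp, of which YBLCtau1 (chromosome II, 35849 to 36219) comes first along the chromosomes. The longest omega LTR is YCLWomega2 with 250 bp.

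**Figure D1:**
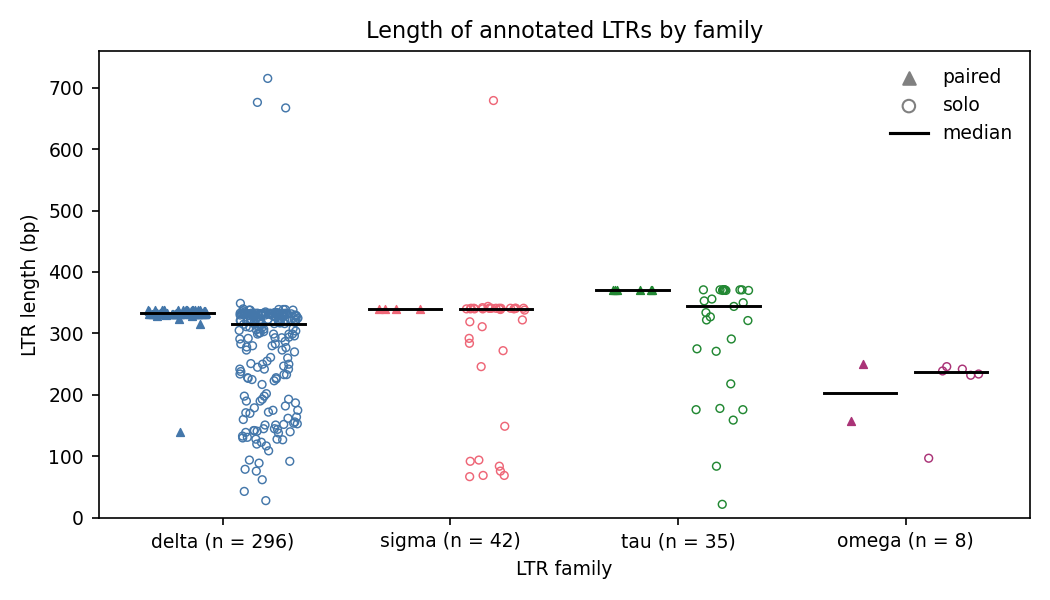
Length in bp of every LTR, by family, with triangles for LTRs paired in an element, open circles for solo LTRs and lines at the medians. Paired points cluster near 333 bp in delta, 340 bp in sigma and 371 bp in tau, solo points reach down to 22 bp, and the 4 points above 600 bp are LTRs that contain another LTR.

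The longest members of delta and sigma are LTRs with another LTR inside them. The sigma LTR YDRCsigma6 has 679 bp (chromosome IV, 1175038 to 1175716) and holds the 332 bp of YDRWdelta26. The longest delta LTR, YERWdelta13 with 715 bp (chromosome V, 353028 to 353742), holds YERCtau2 with 371 bp. YELWdelta1 with 676 bp holds YELWdelta2 with 333 bp, and YJLCdelta4 with 667 bp holds YJLCdelta5 with 332 bp. Without the inner LTR the outer ones come to 347, 344, 343 and 335 bp in that order, beside 340 bp for sigma and 333 bp for delta at the ends of elements. The inner LTR has the strand opposite to the outer one in YDRCsigma6 and YERWdelta13 and the same strand in the other two. A further 5 pairs of neighbouring LTRs overlap by 1 to 10 bp. Of the 365 pairs of neighbouring LTRs on a chromosome, 30 touch with no base between them, of which 9 join different families and 17 opposite strands, and 16 have 1 to 10 bp between them.

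The next comparison was between LTRs that still belong to an element and those that do not. An LTR counted as paired if it lay inside an annotated element of the same strand with an edge within 10 bp of an edge of that element. There were 95 paired LTRs (24.9%, 20.7 to 29.6%) and 286 solo LTRs (75.1%). Delta had 83 paired LTRs of 296 (28.0%), sigma 4 of 42 (9.52%), tau 6 of 35 (17.1%) and omega 2 of 8. The annotation holds 50 elements: 31 Ty1, 13 Ty2, 2 Ty3, 3 Ty4 and 1 Ty5. Solo sigma LTRs therefore numbered 38 beside 2 Ty3 elements, and solo tau LTRs 29 beside 3 Ty4 elements.

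In 48 of 50 elements an LTR row stands at both ends, and both LTRs have the same length in 38 of these and differ by at most 2 bp in 40. All Ty3 and Ty4 pairs have equal lengths. YGRWTy3-1 has YGRWsigma4 and YGRWsigma5, and YILWTy3-1 has YILWsigma1 and YILWsigma2, each of 340 bp. YHLWTy4-1 has YHLWtau1 and YHLWtau2, YJLWTy4-1 has YJLWtau1 and YJLWtau2, and YPLCTy4-1 has YPLCtau2 and YPLCtau1, each of 371 bp. The greatest difference within a pair, 199 bp, was that of YERCTy1-2 (chromosome V, 491540 to 497266), whose 5′ LTR YERCdelta24 has 338 bp and whose 3′ LTR YERCdelta23 has 139 bp. The only Ty5 element, YCLWTy5-1 (chromosome III, 1165 to 4212), follows with 157 bp in YCLWomega1 and 250 bp in YCLWomega2, a difference of 93 bp. YMLWTy1-2 has 337 bp in YMLWdelta5 and 316 bp in YMLWdelta6. The tandem elements YJRWTy1-1 and YJRWTy1-2 on chromosome X share their middle LTR, YJRWdelta12, of 334 bp, and their outer LTRs have 338 bp each.

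The LTRs made up a median of 11.3% of an element's length. Ty1 elements had a median length of 5918 bp, Ty2 of 5959 bp, Ty4 of 6223 bp and the single Ty5 3048 bp, and the Ty3 elements had 5276 and 5428 bp. The elements farthest from their kind's median were YNLCTy2-1 with 5297 bp and YLRCTy2-2 with 5443 bp. YLRCTy2-2 has LTRs of 332 bp at both ends, the family's usual length. YNLCTy2-1 is 1 of the 2 elements with no LTR row at its ends by the pairing rule: its row covers only the inside, and YNLCdelta5 (332 bp) and YNLCdelta6 (333 bp) adjoin it from outside. They are counted as solo here. The other one, YDRCTy1-2 with 5918 bp, had 0 LTR rows at its ends among the 381 rows. Any LTRs there are not in the delta count of 296 and were not analysed here.

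Of the 42 delta LTRs at the 5′ end of an element, 40 overlap the start of a retrotransposon gene, 34 of them by 41 bp and the others by 37 to 42 bp, and 0 of the 41 delta LTRs that stand only at a 3′ end do. YJRWdelta12, the LTR shared by the tandem elements, is both a 5′ and a 3′ LTR and overlaps the gene of YJRWTy1-2 by 41 bp. The 5′ tau LTRs overlap such a gene by 1 bp in 2 of 3 elements, and the 5′ sigma LTRs in 0 of 2. These genes encode Gag, the protein of the virus-like particle, alone or joined to Pol, which holds the protease, integrase and reverse transcriptase. The exceptions among the delta LTRs are YGRCdelta18 and YLRCdelta26, the second of them the 5′ LTR of the short element YLRCTy2-2.

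The main comparison the rule calls for is the position of each LTR relative to the nearest tRNA gene, for which the annotation holds 275 genes. Distance is the number of bases between the nearest edges. Of the 381 LTRs, 260 lay within 1 kb of a tRNA gene (68.2%, 63.3 to 72.9%). By the same measure 6.20% of the 5770 protein-coding genes outside retrotransposons lay within 1 kb of a tRNA gene, as did 9.49% of the 274 origins of replication. Within 1 kb of a tRNA gene lie 4.55% of all bases and 9.68% of the bases outside protein-coding and tRNA genes, or 7.79% when the LTRs themselves are left out too. The median distance was 0.379 kb for LTRs, 17.2 kb for protein-coding genes and 14.2 kb for origins.

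By family, within 1 kb lay 37 of 42 sigma LTRs (88.1%, 74.4 to 96.0%), 26 of 35 tau LTRs (74.3%), 197 of 296 delta LTRs (66.6%, 60.9 to 71.9%) and 0 of 8 omega LTRs. The median distance was 16 bp for sigma, 433.5 bp for delta, 502 bp for tau and 63.6 kb for omega. The intervals of delta and sigma do not overlap, and omega is the only family whose members all lie farther than 1 kb. Among solo LTRs the delta and sigma intervals do overlap. There the share was 164 of 213 for delta (77.0%, 70.8 to 82.5%) and 35 of 38 for sigma (92.1%, 78.6 to 98.3%). Just inside the limit stood YERCdelta8 at 954 bp and YJLWtau2 at 958 bp, and just outside it YELWdelta5 at 1026 bp and YPRCtau3 at 1117 bp.

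**Figure D2:**
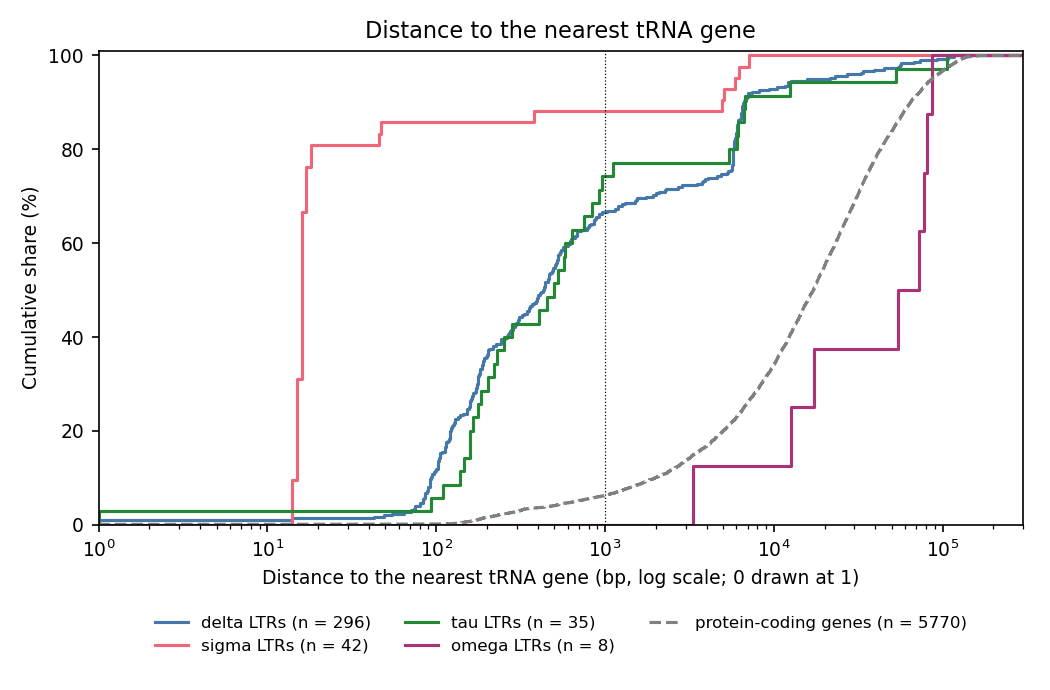
Cumulative share in percent of LTRs of each family, and of protein-coding genes outside retrotransposons, against the distance in bp to the nearest tRNA gene on a log scale, with the 1 kb limit dotted. Sigma steps up between 14 and 18 bp, delta and tau climb from about 100 bp to 1 kb and again between 5 and 7 kb, and omega lies to the right of the genes' median of 17.2 kb in all but 2 members.

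Nearly all of the LTRs near a tRNA gene stand upstream of it, on the side of its 5′ end. Of the 258 LTRs within 1 kb that do not overlap the tRNA gene, 246 were upstream (95.3%, 92.0 to 97.6%). This was so for 37 of 37 sigma LTRs, 185 of 195 delta LTRs (94.9%) and 24 of 26 tau LTRs (92.3%). Of the protein-coding genes within 1 kb and not overlapping a tRNA gene, 30.9% (109 of 353) were on its upstream side. Of the bases outside protein-coding and tRNA genes within 1 kb, 64.9% were upstream, and 56.3% when LTRs are left out of those bases.

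The strand of the LTR relative to the tRNA gene was less one-sided. Of the same 258 LTRs, 145 had the opposite strand (56.2%, 49.9 to 62.3%), against 47.0% of the 353 protein-coding genes. The share was 25 of 37 for sigma (67.6%, 50.2 to 82.0%), 107 of 195 for delta (54.9%) and 13 of 26 for tau (50%). The interval over all families includes equal numbers of both strands, and that of sigma lies just above it. On the chromosomes as a whole, 213 LTRs were on the plus strand (55.9%, 50.8 to 61.0%), 156 of 286 solo LTRs (54.5%, 48.6 to 60.4%) among them. The LTRs of an element share its strand, and with each element counted once the share was 184 of 333 (55.3%). Of the 275 tRNA genes, 52% were on the plus strand.

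**Figure D3:**
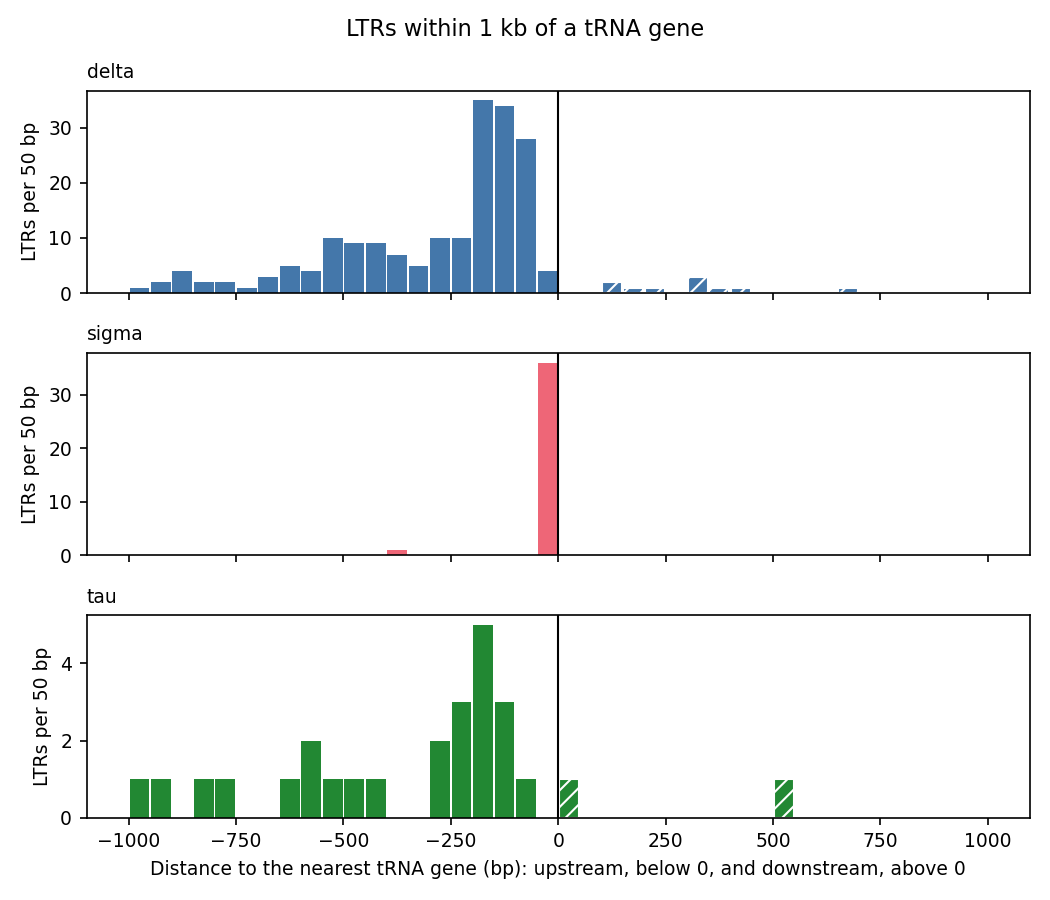
Number of LTRs per 50 bp against the distance in bp to the nearest tRNA gene, by family, with upstream LTRs at negative values and downstream LTRs hatched at positive values. Upstream of the tRNA genes stand 246 LTRs and downstream 12.

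Delta and tau LTRs were spread over a broad stretch upstream. The 185 upstream delta LTRs had a median distance of 181 bp with quartiles of 114 and 437 bp, and 97 of them (52.4%) stood 50 to under 200 bp away, while 4 were closer than 50 bp. The 24 upstream tau LTRs had a median of 241 bp with quartiles of 163.5 and 570 bp, the nearest at 93 bp, and 9 of them lay in the same stretch. The delta LTRs nearest to a tRNA gene without overlap were YCRWdelta8, which touches TM(CAU)C on chromosome III (146989 to 147163), and YCRWdelta10 at 14 bp from TK(CUU)C (147349 to 147679). The nearest tau LTRs were YCRCtau1, which touches TM(CAU)C on the other side, and YORWtau3 at 93 bp. Farthest from any tRNA gene were YALWdelta1 at 116309 bp and YOLCdelta1 at 107738 bp among delta LTRs, and YOLWtau1 at 106975 bp and YPRWtau4 at 52700 bp among tau LTRs.

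Sigma LTRs stood at a nearly fixed distance. Of the 42, 34 (81.0%, 65.9 to 91.4%) lay within 25 bp of a tRNA gene, and all 34 were upstream at 14 to 18 bp. The numbers were 4 at 14 bp, 9 at 15 bp, 15 at 16 bp, 4 at 17 bp and 2 at 18 bp. The nearest in chromosome order were YBLWsigma1 (341 bp; chromosome II, 197705 to 198045) and YHRCsigma3 (92 bp; chromosome VIII, 466893 to 466984), both at 14 bp. In these positions 25 sigma LTRs had the opposite strand to the tRNA gene, at 14 to 18 bp with a median of 15 bp, and 9 had the same strand, at 16 to 18 bp with a median of 16 bp. The edge that faces the tRNA gene is the LTR's 5′ end in the opposite strand and its 3′ end in the same strand, and the distance differed little between them. The position was found among both long and shorter LTRs. Of the 30 long sigma LTRs, 24 (338 to 679 bp) stood at 14 to 18 bp. Of those not long, 10 (67 to 284 bp) stood at 14 to 17 bp, and YDRCsigma1 and YNLWsigma2 stood farther away. The 34 tRNA genes are all different genes and read 19 different amino acids, with 5 for alanine and 3 each for arginine, glycine and isoleucine.

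The other 8 sigma LTRs can be listed. YGRWsigma7 was 46 bp from TG(GCC)G1 and YLRWsigma4 47 bp from TD(GUC)L2, both upstream. YNLWsigma2 was 379 bp from TP(UGG)N1, with YNLWsigma3 between them at 16 bp, and lay 39 bp away when the bases of the LTR between were left out. YGRWsigma5 and YILWsigma1 are the far LTRs of the Ty3 elements, 4951 and 5105 bp from TC(GCA)G and TI(AAU)I2, and their partners stood at 15 and 17 bp. YDRCsigma1 was 6195 bp from TQ(UUG)D2 with the element YDRCTy1-1 between them, and YORWsigma4 7119 bp from EMT2 with YORWTy2-2 between. Without the bases of elements and LTRs between, these 2 lay 277 and 1030 bp away. YDRWsigma5 was 5858 bp from TE(CUC)D with no element between.

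At most tRNA genes with both, the sigma LTR stood nearer than the LTRs of other families. Of 28 tRNA genes with a sigma LTR and an LTR of another family within 1 kb, sigma was nearest at 26, at 14 to 146 bp. The nearest LTR of another family stood 83 to 638 bp from the same 26 genes, with a median of 327.5 bp. At the other two a delta LTR was nearest. At TT(AGU)I2 YILWdelta4 stood at 43 bp, nearer than YILWsigma3, and at TK(CUU)E2 YERCdelta16 stood at 121 bp and YERCsigma3 at 780 bp. YILWsigma3 is 16 bp from TD(GUC)I1 and YERCsigma3 18 bp from TH(GUG)E2. With each LTR assigned only to its own nearest tRNA gene, 171 tRNA genes had an upstream LTR within 1 kb. The nearest such LTRs were 122 delta LTRs at a median of 134 bp, 36 sigma LTRs at 16 bp and 13 tau LTRs at 183 bp.

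Of the 12 LTRs downstream of their tRNA gene, 10 were delta and 2 tau. They stood at 0 to 680 bp, and 6 of them had the opposite strand. At the tryptophan tRNA gene TW(CCA)M there were 3, YMRWdelta12 at 104 bp, YMRCdelta11 at 241 bp and YMRCdelta10 at 680 bp. A further 2 LTRs overlap a tRNA row. YCRCdelta7 shares 14 bp with SUF16, and YNLWdelta3 shares 7 bp with TD(GUC)N.

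Within 1 kb of a tRNA gene were 39 of 95 paired LTRs (41.1%, 31.1 to 51.6%), against 221 of 286 solo LTRs (77.3%, 72.0 to 82.0%). The LTRs of an element lie several kb apart, so at most one of them is within 1 kb of a given tRNA gene beside the element. Counted as wholes, 38 of 50 elements (76%) were within 1 kb, at a median of 197 bp over all 50. One of these, YNLWTy1-2, overlaps TD(GUC)N, and 36 of the other 37 (97.3%) were upstream of their tRNA gene. The exception is YLRWTy1-3, 190 bp downstream of TA(AGC)L. The 36 upstream elements stood at 15 to 925 bp with a median of 176.5 bp. By strand, 22 of the 37 elements faced the tRNA gene with the 5′ end and 15 with the 3′ end, so both directions were common. YDRCTy1-2 and YNLCTy2-1, which have no LTR row at their ends, are among the 22. By kind the median was 193 bp for Ty1 and 353 bp for Ty2. The Ty2 value counts YNLCTy2-1 at 454 bp from TP(UGG)N2, measured from a row that covers only the inside. YNLCdelta6, which adjoins that row, stands 122 bp from the same tRNA gene. With that LTR counted as part of the element the Ty2 median would be lower, so the difference between Ty1 and Ty2 rests on this row. The Ty3 elements lay at 15 and 17 bp, the Ty4 elements at 159, 165 and 925 bp and the Ty5 element at 78130 bp.

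Many LTRs farther than 1 kb have an element between them and the tRNA gene. Of the 121 LTRs beyond 1 kb, 69 had at least 1 element between, counting their own, and 46 of these were paired and 23 solo. Over 5 and up to 7 kb away stood 59 LTRs, of which 53 had an element between, and 33 of those 53 were paired. With the bases of annotated elements and LTRs between left out of the distance, 323 of 381 LTRs lay within 1 kb (84.8%). That was 252 delta (85.1%), 40 sigma (95.2%), 31 tau (88.6%) and 0 omega LTRs, against 7.19% of protein-coding genes measured in the same way.

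Seen from the tRNA genes, 179 of 275 (65.1%, 59.1 to 70.7%) had an LTR within 1 kb. An upstream LTR was found at 173 (62.9%), a downstream one at 15 (5.45%) and a sigma LTR within 25 bp at 34 (12.4%). The number of LTRs within 1 kb was 0 at 96 tRNA genes, 1 at 102, 2 at 55, 3 at 17 and 4 at 5. By amino acid the share with an LTR ran between 4 of 4 for cysteine, 11 of 12 for proline (91.7%) and 13 of 16 for alanine (81.3%) at the upper end, and 9 of 18 for serine, 5 of 10 for phenylalanine and 8 of 18 for valine (44.4%) at the lower end. These are small numbers of genes per amino acid.

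The 5 tRNA genes with 4 LTRs show how the families are laid out. At TC(GCA)P1 on chromosome XVI all 4 were upstream, YPLWdelta9 at 103 bp, YPLCdelta10 at 285 bp, YPLWdelta11 at 629 bp and YPLCtau1, the near LTR of a Ty4 element, at 925 bp. At TW(CCA)P on chromosome XVI the 69 bp of YPLWsigma1 stood at 15 bp, followed upstream by YPLWdelta2 at 134 bp and YPLWdelta3 at 177 bp, with YPLCdelta1 310 bp downstream. At TH(GUG)G2 on chromosome VII YGLCsigma1 stood at 18 bp, YGLCdelta5 at 439 bp and YGLWdelta4 at 920 bp upstream, with YGLCtau3 502 bp downstream. Sigma was again innermost at both genes. TK(CUU)E2 on chromosome V had YERCdelta16 at 121 bp and YERCtau3 at 454 bp upstream, and YERCdelta15 at 304 bp and YERCsigma3 at 780 bp downstream. TL(UAA)D on chromosome IV had YDRCdelta5 95 bp upstream, and YDRCdelta6A at 346 bp, YDRWdelta7 at 650 bp and YDRCdelta6B at 979 bp downstream. An LTR counted at a tRNA gene here can have another tRNA gene as its nearest one.

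**Figure D4:**
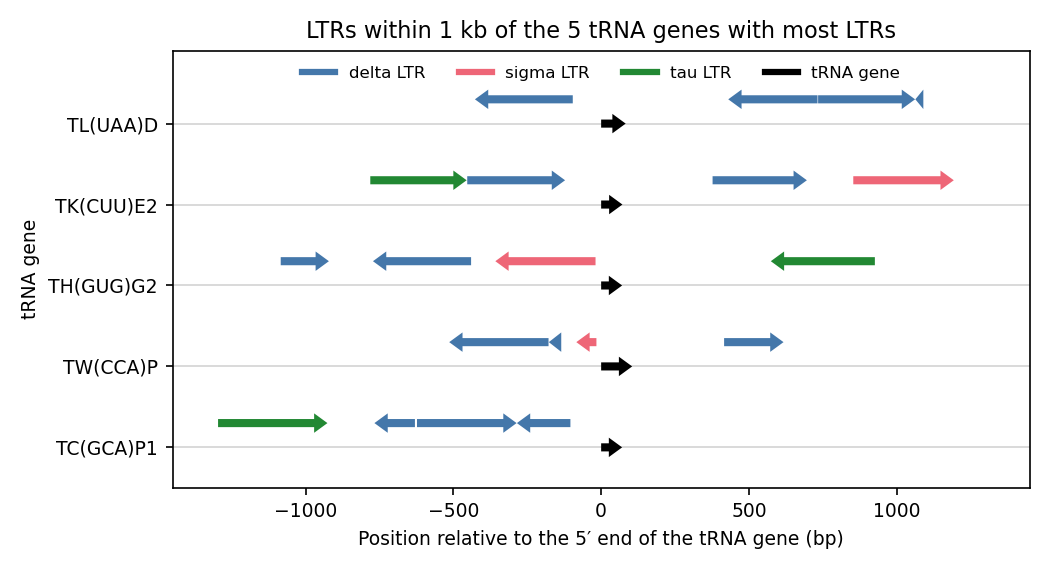
Position in bp relative to the 5′ end of the tRNA gene of the LTRs within 1 kb of the 5 tRNA genes that have 4 such LTRs, drawn to scale with arrows in the direction of each LTR's strand relative to the tRNA gene. Sigma LTRs are the innermost at TH(GUG)G2 and TW(CCA)P, at 18 and 15 bp, and at TK(CUU)E2 a sigma LTR lies 780 bp downstream.

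Joining LTRs with gaps of 500 bp or less gave 257 loci. Of these, 172 held 1 LTR (66.9%), 53 held 2, 25 held 3 and 7 held 4, so that 209 of 381 LTRs had another within 500 bp. More than 1 family was present in 49 loci and both strands in 49. The share of loci within 1 kb of a tRNA gene was 66.5% over all loci, and by size 60.5% with 1 LTR, 84.9% with 2, 72% with 3 and 57.1% with 4. The loci with 4 LTRs that come first along the chromosomes are on chromosomes III and V. The one on chromosome III (83950 to 85023) holds the delta LTRs YCLWdelta2A, YCLWdelta3, YCLWdelta2B and YCLWdelta4, all on the plus strand, of 226, 332, 89 and 332 bp, and its nearest tRNA gene is 1535 bp away. The first on chromosome V (352291 to 353809) holds YERWdelta12, YERWdelta13 with YERCtau2 inside it, and YERCsigma2, whose edge is 16 bp from a tRNA gene. The second (433476 to 435450) holds YERCsigma3, YERCdelta15, YERCdelta16 and YERCtau3, all on the minus strand.

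All 8 omega LTRs lay within 25 kb of a chromosome end, against 15 of 296 delta (5.07%), 2 of 35 tau and 0 of 42 sigma LTRs and 5.36% of protein-coding genes. Their distances to the end were 0.837 kb for YGLWomega1 (chromosome VII, 838 to 1079), 1.147 kb for YKRWomega1 (XI, 665062 to 665300), 1.164 kb for YCLWomega1 (III, 1165 to 1321) and 3.962 kb for YCLWomega2 (III, 3963 to 4212). They were 7.85 kb for YERWomega2 (V, 567636 to 567869), 7.994 kb for YHLComega1 (VIII, 7995 to 8226), 12.85 kb for YERComega1 (V, 562773 to 562869) and 24.45 kb for YCRWomega3 (III, 287752 to 287997). The omega LTRs lay 56 to 23615 bp from the annotated telomeric regions, and none overlapped one. The one farthest from an end, YCRWomega3, stands just outside HMR, a silent mating-type locus annotated at 288218 to 290864 on chromosome III. It is also the omega LTR nearest to a tRNA gene, at 3.316 kb, and YKRWomega1 is the farthest, at 86.351 kb.

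Of the omega LTRs, 4 of 8 were within 1 kb of an origin of replication. YCLWomega1 overlaps or touches ARS300, and YERWomega2 touches ARS523 with no base between them. YHLComega1 was 210 bp from ARS802 and YCRWomega3 220 bp from ARS317. Over all families 60 of 381 LTRs were within 1 kb of an origin (15.7%, 12.2 to 19.8%), with 42 of 296 delta (14.2%), 6 of 42 sigma (14.3%) and 8 of 35 tau LTRs (22.9%). The same share was 8.47% for protein-coding genes and 8.38% for bases outside protein-coding genes.

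Where an LTR lay between neighbouring protein-coding genes, the arrangement of those genes was compared with that of all gaps. Of the 374 LTRs in such gaps, 19.5% lay between converging genes, 27.3% between diverging genes and 53.2% between genes in the same direction, against 15.7%, 33.2% and 51.1% of the bases in gaps and 25.9%, 26.1% and 48.0% of the gaps themselves. The LTR share between converging genes was above that of bases and below that of gaps. Counted as loci, the shares were 19.9%, 26.3% and 53.8%.

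There were 12 LTRs (3.15%, 1.64 to 5.44%), 11 delta and 1 tau, that overlap a protein-coding gene outside retrotransposons. Of the 12055736 bases of the chromosomes, 3320329 lie outside protein-coding genes, with retrotransposon genes counted among those genes. The share of other features that overlap such a gene was not counted. Of these 12, 7 are paired and 5 solo. The 5 longest overlaps were 184 bp of YDRWdelta28 with YDR366C, 177 bp of YDRWdelta7 with YDR034C-A, which lies wholly in the LTR, 162 bp of YORCdelta20 with YOR192C-C, 161 bp of YILWdelta2 with YIL060W and 158 bp of YALWdelta1 with YAL063C-A. Of these 5 genes, all but YDR366C are annotated as putative proteins of unknown function. Chosen after its values were seen, YLRWdelta13 (chromosome XII, 650733 to 651066), the 5′ LTR of YLRWTy1-3, overlaps the last 100 bp of HAP1 (646324 to 650832), which encodes a transcription factor that responds to heme.

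LTR density ranged between 2.04 and 5.76 per 100 kb over the chromosomes. Chromosome III had the highest with 18 LTRs, or 5.76 per 100 kb, and chromosome V the next with 33, or 5.73 per 100 kb. The lowest densities were 2.04 per 100 kb on chromosome XIV with 16 LTRs and 2.10 per 100 kb on chromosome XI with 14. Counting each locus once gave 3.84 and 3.82 loci per 100 kb on III and V, and 1.15 and 1.80 on XIV and XI. Chromosome XI has no annotated element, all of its LTRs are solo, and 13 of 14 (92.9%) are within 1 kb of a tRNA gene. Chromosome VII has the most LTRs, 44, and chromosome I the fewest, 9.

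Across the 16 chromosomes the number of LTRs followed the number of tRNA genes with Pearson's r = 0.856 and Spearman's rho = 0.840, and r was 0.750 without the 2 chromosomes farthest from the median. With chromosome length r was 0.781 and rho 0.793, and r was 0.732 without the 2 farthest. The points share chromosome length, which moves all these numbers. Per 100 kb of chromosome, LTR density against tRNA gene density gave r = 0.604 and rho = 0.447, and r = 0.470 without the 2 farthest.

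**Figure D5:**
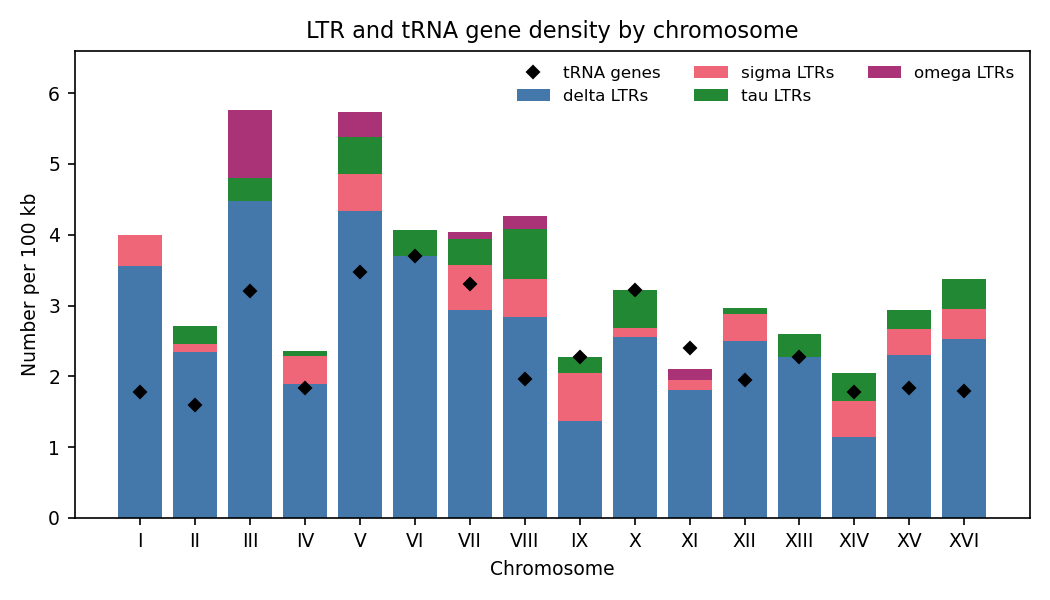
LTRs per 100 kb on each of the 16 chromosomes, as bars stacked by family, with tRNA genes per 100 kb as diamonds. Chromosomes III and V stand highest at 5.76 and 5.73 LTRs per 100 kb and XIV and XI lowest at 2.04 and 2.10, and on XI the tRNA genes are denser, at 2.40 per 100 kb, than the LTRs.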

How the data were processed

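The authors deposited the annotation of L03 as a GFF3 table, made from release R64-1-1 of the S288C reference of the Saccharomyces Genome Database (SGD), per the file headers. Its values are starts, ends and strands of features in bases counted from 1, and its score column is empty. Reads were handled with cutadapt 1.2.1 and Bowtie 0.12.8, per the submitters' processing notes. HydEn-seq end counts were not analysed here, so no depth is given. No genome sequence of this build was used, so no LTR sequence is printed.

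Families, strands and distances were computed in Python 3.11.15 with numpy 2.4.6, pandas 2.3.3, scipy 1.17.1 and matplotlib 3.10.9. Element rows were planned to be found by the type LTR retrotransposon. In this file they are typed as repeat regions of the family Transposon, which were used. Protein-coding genes were the 5859 genes with an mRNA less 89 retrotransposon genes. The share of features within 1 kb of a tRNA gene was counted in the same way for LTRs, genes, origins and bases. All 381 LTRs entered, with no filter. Alternatives changed the limits, the measure of distance, the pairing rule and the LTRs or chromosomes counted. Named LTRs are, per family, the longest and shortest, the 2 nearest to and farthest from a tRNA gene, all paired LTRs or all members of small families, and the extremes of pairs, loci, chromosomes, tRNA genes and gene overlaps. The members, lists and rules were chosen with earlier results of these data known.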

Additional observations from a re-analysis of the deposited data

How the results depend on the processing

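Of 94 values recomputed under another choice, 80 stayed within the interval or spread of the first value and 14 moved beyond it. With any 1 chromosome left out, 66.9 to 69.3% of LTRs were within 1 kb of a tRNA gene. Of those near, 94.9 to 96.2% were upstream and 54.4 to 58.3% on the opposite strand. None of these 48 values moved beyond the interval of the first value. They are among the 80, and each keeps most of the same LTRs, so little movement was possible. The share within 1 kb was 56.7% with a limit of 500 bp, 77.2% with each element counted once and 77.3% for solo LTRs. It was 84.8% with the bases of elements and LTRs between left out, an alternative chosen after seeing the data, under which the delta median was 174.5 bp. The upstream share was 98.8% with 1 LTR per tRNA gene. Between midpoints the median distance was 595.25 bp for delta and 223.25 bp for sigma, since a midpoint adds part of the LTR's own length. The long share of delta was 75% with a limit of 80% of the reference length and 61.5% with 95%. The paired share was 35.2% if pairs were LTRs of a family and strand with starts 4500 to 6500 bp apart. It was 19.9% if the nearest such LTR stood at that distance and both were long, and 27.6% if LTRs touching an element from outside counted as well, both chosen after seeing the data. With each locus counted once, density was 3.82 per 100 kb on chromosome V and 1.15 on chromosome XIV. No paired analysis was possible because the values come from 1 annotation and from no library. The annotation gives no error for an edge, so differences of a few bases between LTRs cannot be weighed.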

Other observations

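Some LTRs stand out in the annotation without belonging to a comparison above. YERWdelta21 (306 bp; chromosome V, 443679 to 443984, plus strand) lies wholly inside YER138C, the Gag-Pol gene of YERCTy1-1, which is on the minus strand. The element has 5924 bp, near the Ty1 median of 5918 bp. The solo LTR YDRWdelta11 (331 bp; chromosome IV, 802806 to 803136) overlaps the retrotransposon gene YDR170W-A by 41 bp, the overlap most common between 5′ delta LTRs and their genes. YGRWsigma5, the 3′ LTR of the Ty3 element YGRWTy3-1, overlaps a retrotransposon gene by 49 bp.

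The name of an LTR states its chromosome, arm and strand. The chromosome letter matched the row in 381 of 381 LTRs, the strand letter in 380 and the arm letter in 377. YCRCtau1 is named for the minus strand and annotated on the plus strand. YJRWtau3, YOLCdelta9, YOLWsigma2 and YOLWdelta10 lie on the other arm than the one they are named for, 14.105 to 28.176 kb from the centromere.

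Some of the annotated marks of strain construction lie near LTRs. A site marked for KanMX insertion on chromosome III (90792 to 90978) is 141 bp from YCLWdelta5. The mark of the ura3 deletion on chromosome V is 1.18 kb from YELCtau1, and a URA3 insert on chromosome III is 5.615 kb from YCLCdelta1. Apart from these marks, YCRWdelta13 overlaps the annotated HMR, the silent mating-type locus named above.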
